A study of Homo sapiens with 6 samples.

Results

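The replication-dependent histone genes of chromosome 6 lie in a cluster, and the H3K4me2 regions of that cluster are described here. H3K4me2, histone H3 dimethylated at lysine 4, was profiled by ChIP-seq in LNCaP, a line of prostate cancer cells that respond to androgen. The cells were kept for 3 days in 5% charcoal-stripped serum. The 6 libraries formed 3 groups of 2 replicates, called vehicle, GSK 4 h and GSK 24 h after GSK2879552, an inhibitor of the H3K4 demethylase LSD1 (KDM1A). The labels of both GSK groups name the androgen DHT together with GSK2879552, whereas the vehicle label does not mention DHT and the treatment protocol names GSK2879552 alone. An effect of androgen and an effect of the inhibitor therefore cannot be told apart. Each group had 1 deposited peak list that combined both replicates, so no value below carries a replicate error and no difference between groups could be tested.

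Members were all regions of a list that overlapped 1 of 3 windows on chromosome 6 in hg19, chosen by position: chr6:26000000-26300000 (window 1), chr6:27090000-27120000 (window 2) and chr6:27770000-27870000 (window 3). The vehicle list held 56 members among 99997 regions on chromosomes 1 to 22, X and Y. The GSK 4 h list held 59 of 128134 and the GSK 24 h list 54 of 127189. By window the members numbered 31, 10 and 15 in vehicle, 36, 7 and 16 at 4 h, and 29, 10 and 15 at 24 h. No gene annotation of the files' build was used, so no region was assigned to a gene, and the LNCaP label was not checked against marker genes.

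Replication-dependent histone genes are short, lack introns and are transcribed mainly during S phase, when new DNA has to be packed into nucleosomes. Their messages end in a stem-loop in place of a poly(A) tail. The core histones H2A, H2B, H3 and H4 form the nucleosome particle, and H1 binds the linker DNA. H3K4me2 marks the flanks of active promoters as well as enhancers, and LSD1 removes it.

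In the RefSeq gene table (GRCh38.p14), 53 protein-coding histone genes lay in gene order from H1-1 to H2BC17: 6 of H1, 11 of H2A, 14 of H2B, 10 of H3 and 12 of H4. The same stretch, which also takes in the sequence between the windows, held 15 other protein-coding genes and 98 tRNA genes. How many of these lie inside the windows was not determined, so a member region cannot be taken to belong to a histone gene. RefSeq promoter sequences matched 48 of the 53 genes, in 52 entries. The 250 bases before the start of 1 gene each of H1, H2B, H3 and H4, the first of its type in gene order with an entry, are shown to give promoter elements that histone types have in common or apart. Capitals mark 4 elements, searched on both strands. The TATA box was taken as the letters TATAAA and the CCAAT box as its own letters. The octamer was searched as ATTTGCAT. For the H1 box the letters were AAACACA. None of the matches overlapped another. Positions are in GRCh38.p14 and are not set beside the hg19 regions.
H1-1, minus strand, chr6:26017788-26018037: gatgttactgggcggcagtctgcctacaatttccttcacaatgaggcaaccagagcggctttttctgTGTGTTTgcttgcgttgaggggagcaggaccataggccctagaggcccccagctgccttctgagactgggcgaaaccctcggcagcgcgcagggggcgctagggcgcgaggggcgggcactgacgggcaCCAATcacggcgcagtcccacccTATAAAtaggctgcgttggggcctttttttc
H2BC3, minus strand, chr6:26043714-26043963: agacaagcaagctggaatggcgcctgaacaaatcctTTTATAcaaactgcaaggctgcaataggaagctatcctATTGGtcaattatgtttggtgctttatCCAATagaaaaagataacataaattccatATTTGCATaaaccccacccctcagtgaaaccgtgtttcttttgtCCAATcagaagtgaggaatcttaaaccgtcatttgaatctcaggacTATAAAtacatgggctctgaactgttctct
H3C1, plus strand, chr6:26020201-26020450: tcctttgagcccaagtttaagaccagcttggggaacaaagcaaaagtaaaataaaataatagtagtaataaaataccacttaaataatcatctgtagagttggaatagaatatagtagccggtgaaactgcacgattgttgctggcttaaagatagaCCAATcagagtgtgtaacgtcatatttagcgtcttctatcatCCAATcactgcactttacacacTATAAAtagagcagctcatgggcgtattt
H4C2, minus strand, chr6:26027284-26027533: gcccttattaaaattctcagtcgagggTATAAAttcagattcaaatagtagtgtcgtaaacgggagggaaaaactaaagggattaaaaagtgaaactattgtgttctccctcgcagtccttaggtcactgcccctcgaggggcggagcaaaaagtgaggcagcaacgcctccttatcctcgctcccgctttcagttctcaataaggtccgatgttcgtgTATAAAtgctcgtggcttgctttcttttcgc

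The 4 promoters had a TATA box 29 to 31 bases before the start. The H1 box stood 183 bases before the start of H1-1, and the octamer stood 120 bases before that of H2BC3. The H1 box was present in 6 of 6 H1 entries and in none of the other 46, against 4.82% of all 35116 promoters in the table. The octamer, a site for OCT1 (POU2F1) in H2B promoters, was present in 12 of 16 H2B and 8 of 10 H2A entries, in 1 of 10 H3 entries and in no H1 or H4 entry, against 1.63% of all promoters. A CCAAT box was found in 45 of 52 entries (32.0% of all promoters) and a TATAAA in 34 of 52 (10.7%). H4 stood apart with a CCAAT box in 3 of 10 entries. A match is a run of letters and was not tested as a binding site.

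Within each list, most member regions had summits above the median height, on a dense surround. The number of fragments over a summit (pileup) and the number of tags in 10 kb around it were recovered from the deposited fold enrichment and p-value. Height is the pileup divided by the genome-wide level of the same list, and tag density is the 10 kb tag number divided by its genome-wide level. The 10 kb, called the surround, include the summit itself and any neighbouring regions, so tag density is not a background apart from the peaks. The median height of members was 16.8 in vehicle, 22.8 at 4 h and 19.3 at 24 h, against 11.0, 11.2 and 10.7 over all regions. The median 10 kb tag number of members was 380, 525 and 414, against 147, 155 and 143 over all regions. Members thus lay above the middle of their list in both measures, and further above it in tag density.

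Tag density placed 35 of 56 vehicle members (62.5%), 38 of 59 at 4 h (64.4%) and 39 of 54 at 24 h (72.2%) in the top 25% of their own list. A surround at the genome-wide level was seen at 2 vehicle members, 5 at 4 h and 4 at 24 h, against 27.0%, 29.1% and 25.7% of all regions. Because the deposited fold enrichment divides a summit by its surround, the members ranked low in it. Their median fold enrichment was 3.91, 4.36 and 4.05, against 4.95, 4.86 and 4.72 over all regions, and 44 of 56, 39 of 59 and 40 of 54 members lay in the lower 50% of their list. The stretches of chromosome 6 between the windows were intermediate, with a median tag density of 2.52, 3.13 and 3.21 against 4.03, 5.19 and 4.61 at members.

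**Figure D1:**
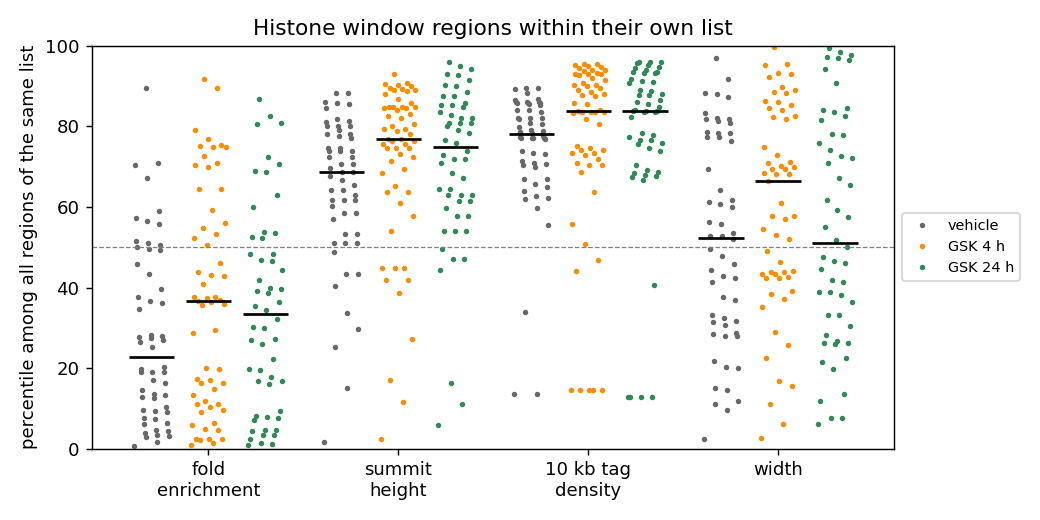
Each point is 1 member region, placed by its percentile among all regions of the same list for fold enrichment, summit height, 10 kb tag density and width, with black bars at the medians. Median percentiles were 22.6, 36.7 and 33.3 for fold enrichment and 78.0, 84.0 and 83.8 for tag density in vehicle, GSK 4 h and GSK 24 h.

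The members stood close together. Of the gaps between neighbouring members, 49.1% in vehicle, 46.4% at 4 h and 43.1% at 24 h were shorter than 1 kb, against 21.7%, 25.2% and 23.5% over all regions. In the stretches between the windows the shares were 37.4%, 42.0% and 39.6%, inside the counting intervals of the members' shares. Close spacing was thus not particular to the windows. The windows held 13.0, 13.7 and 12.6 members per 100 kb, and the stretches between them 10.3, 11.4 and 10.5 regions. Regions covered 7.50%, 8.98% and 8.19% of the windows. The widest member was chr6:26284306-26285858 in vehicle (1553 bp), chr6:27833158-27835371 at 4 h (2214 bp) and chr6:27833381-27835260 at 24 h (1880 bp). The last pair overlapped, and vehicle had 2 separate members there.

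Member heights reached at most 38.9 in vehicle, 44.6 at 4 h and 40.7 at 24 h, and no member reached a height of 64, which 7.09%, 1.56% and 0.413% of all regions did. In the GSK lists a count of 0 is close to that background. The tallest vehicle member was chr6:27862449-27862955 in window 3, with 81 fragments at the summit in vehicle, 74 at 4 h and 80 at 24 h. These are heights of 38.9, 39.3 and 40.7, and the ratio to vehicle was 1.01 at 4 h (95% interval 0.728 to 1.40) and 1.05 at 24 h (0.759 to 1.44). Intervals on ratios cover the Poisson error of counting only, not the spread between replicates.

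The next named summits were in window 1. Member chr6:26125224-26126417 had 80 fragments in vehicle, 69 at 4 h and 62 at 24 h. Member chr6:26159444-26160066 had 69, 58 and 76, and chr6:26195961-26196459 had 67, 52 and 69. At none of these 3 did the counting interval of a ratio to vehicle leave 1, and the lowest ratio was 0.822 (0.580 to 1.16), at the first of them at 24 h. Member chr6:26104198-26105100 had 56, 63 and 56 fragments and the sparsest surround of the window's 5 tallest, 2.57 times the genome-wide level in vehicle, so that its fold enrichment of 8.98 was the highest of all vehicle members. In window 3, chr6:27833171-27834237 had 68 fragments in vehicle, and the broad regions that overlapped it had 73 at 4 h and 73 at 24 h.

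The remaining tall vehicle members were taller at 4 h. In window 1, chr6:26055669-26056705 had 52 fragments in vehicle, 84 at 4 h and 61 at 24 h, a ratio to vehicle of 1.79 (1.25 to 2.58) at 4 h and 1.24 (0.845 to 1.84) at 24 h. Member chr6:26156954-26157759 tied with it at 52 fragments in vehicle. It had 69 at 4 h and 58 at 24 h, with a smaller 4 h ratio of 1.47 (1.01 to 2.15). In window 2, chr6:27099900-27100488 had 42, 70 and 49 fragments, with a 4 h ratio of 1.85 (1.24 to 2.77). Member chr6:27114906-27115797 had 41 fragments in vehicle and 71 at 4 h, a ratio of 1.92 (1.29 to 2.89), and overlapped 2 regions at 24 h with 47 and 28 fragments. The 24 h height lay nearer to vehicle than to 4 h at chr6:26055669-26056705, chr6:26156954-26157759 and chr6:27099900-27100488. At chr6:27114906-27115797 the taller of the overlapping 24 h regions also lay nearer to vehicle.

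**Figure D2:**
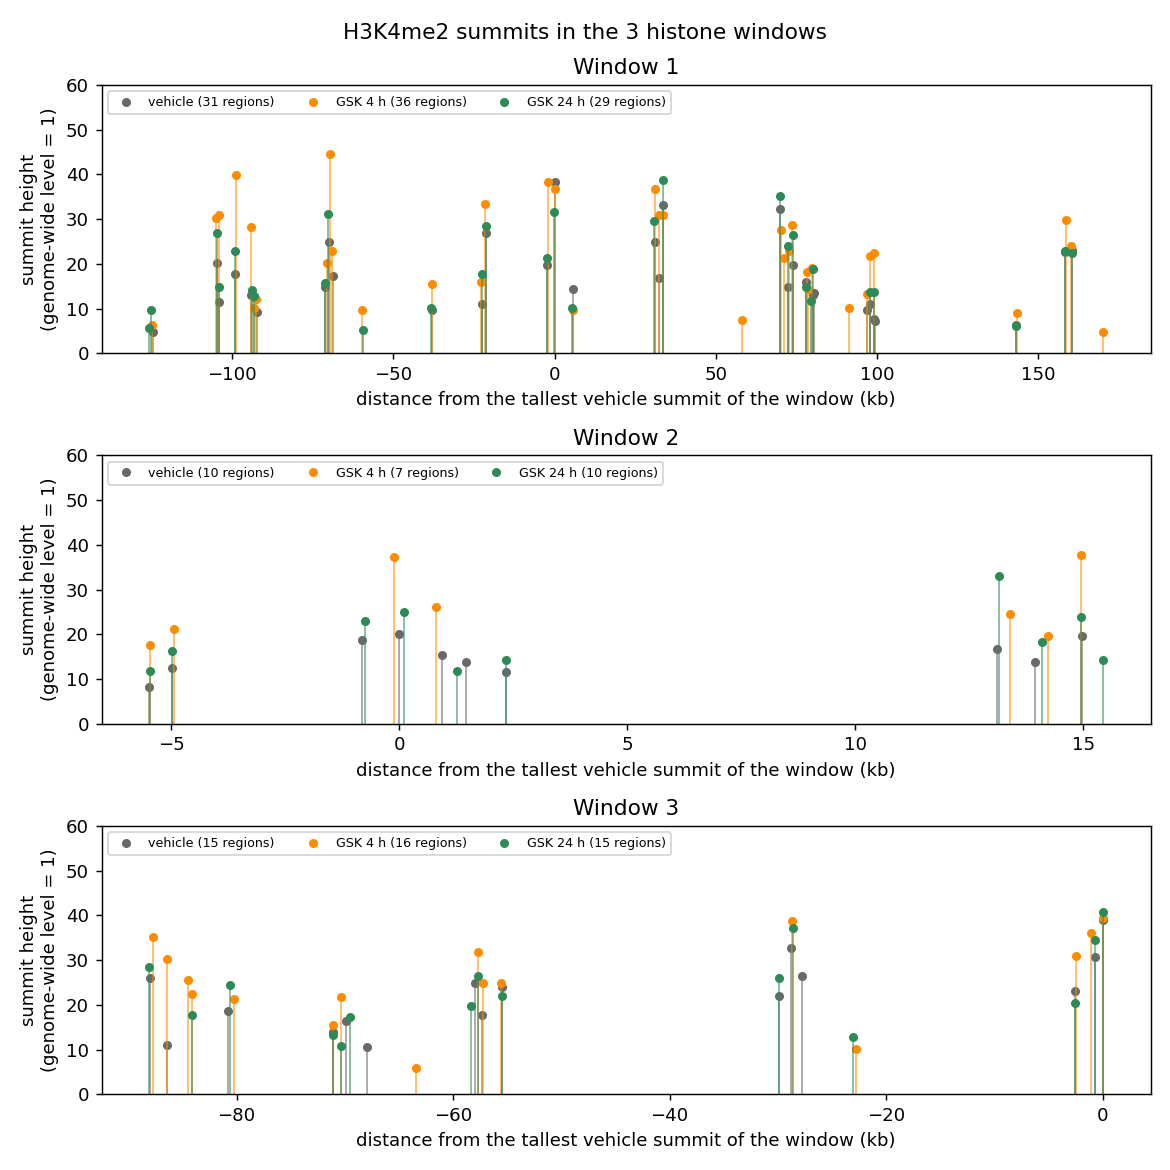
Each stem is 1 member region, with the distance of its summit from the tallest vehicle summit of the window in kb on the x axis and its height relative to the genome-wide level on the y axis. At the tallest vehicle summits of windows 1 and 3 the lists lie close together (38.9, 39.3 and 40.7 in window 3), while the GSK 4 h stems stand above the others around the tallest vehicle summit of window 2 (37.2 against 20.2 in vehicle).

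Across the cluster, most summits were taller at 4 h than in vehicle relative to the genome-wide level. Of the 43 members matched 1 to 1 by overlap between these lists, 39 were higher at 4 h (90.7%, against 66.9% of all 67411 matched regions). The median log2 height ratio was 0.50, against 0.24 over all matched regions and 0.27 over the 103 matched between the windows. At least 1.5 times higher were 15 of 43 (34.9%, against 24.2% of all), and 1 was at least 1.5 times lower (11.1% of all). Between the windows these shares were 24.3% and 1.94%. The counting interval lay above 1 at 13 of 43 (30.2%, against 12.8%) and below 1 at none (9.42%). With the deposited fold enrichment, which divides a summit by its surround, the median log2 ratio was 0.13 against 0.08 over all matched regions. By that measure 4 members were at least 1.5 times higher, with no genome-wide share beside this count.

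By window, the median log2 height ratio of 4 h to vehicle was 0.54 in window 1 (n = 26), 0.83 in window 2 (n = 6) and 0.35 in window 3 (n = 11). All 6 matched members of window 2 and all 11 of window 3 were higher at 4 h. The 4 exceptions lay in window 1, and 3 of them were the tallest vehicle summits named above. The fourth, chr6:26131485-26131902, had 30 fragments in vehicle, 18 at 4 h and 20 at 24 h, with a 4 h ratio of 0.664 (0.349 to 1.23).

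The highest 4 h ratios, named after their values were seen, were in windows 1 and 3. Member chr6:27776081-27776326 had 23 fragments in vehicle and 57 at 4 h, a ratio of 2.74 (1.66 to 4.67). Member chr6:26021985-26022224 had 24 in vehicle and 58 at 4 h, a ratio of 2.68 (1.64 to 4.50). Next came chr6:26026513-26027447, with 37 fragments in vehicle, 75 at 4 h and 45 at 24 h and a 4 h ratio of 2.24 (1.49 to 3.42). These vehicle summits were between 11.0 and 17.8 times the genome-wide level, against medians of 11.0 over all vehicle regions and 16.8 over vehicle members.

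At 24 h the summits of the cluster were close to vehicle. Of 39 matched members, 30 were higher at 24 h (76.9%, against 63.8% of all 68815 matched regions), with a median log2 height ratio of 0.17 against 0.16 over all. Ratios of at least 1.5 in favour of 24 h were seen at 3 members (7.69%, against 15.8%) and the opposite at 0 (10.1%). The counting interval lay above 1 at 1 member (2.56%, against 5.46%) and below 1 at none (8.70% of all). The median thus lay close to that of the genome, with lower shares of large ratios in either direction, on counts of 3 and 0. Of the 97 matched regions between the windows, 86 were higher at 24 h, with a median log2 ratio of 0.28 against 0.17 at members. Between the windows 16.5% were at least 1.5 times higher at 24 h and 1.03% lower by that margin. Few decreases were therefore seen in the wider neighbourhood as well.

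The 5 highest ratios of 24 h to vehicle began with chr6:27112973-27113813 in window 2, which had 35 fragments in vehicle and 65 at 24 h, a ratio of 1.97 (1.29 to 3.06). The overlapping 4 h region had 46 fragments. Then came chr6:26103410-26103695 with 23 in vehicle and 35 at 24 h (ratio 1.61, 0.927 to 2.86) and chr6:26198550-26198879 with 31 and 47 (1.61, with an interval that just reached 1). The other two were chr6:27094611-27094897, with 17 and 23 fragments, and chr6:26199809-26200381, with 41 and 52. Only the first of the 5 had a counting interval above 1.

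The 5 lowest ratios of 24 h to vehicle were small departures. They were 0.707 (0.380 to 1.29) at chr6:26131485-26131902, 0.822 at chr6:26125224-26126417, 0.841 at chr6:27101459-27101838, 0.883 at chr6:27859953-27860451 and 0.912 at chr6:27806969-27807376. All 5 counting intervals included 1.

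Set against 4 h, 31 of 42 matched members were lower at 24 h, against 61.3% of all 78948 matched regions, with a median log2 height ratio of -0.23 against -0.15 over all. Between the windows 58 of 97 matched regions were higher at 24 h, with a median of 0.12. At least 1.5 times lower at 24 h were 10 of 42 (23.8%, against 18.4% of all), and 1 was at least 1.5 times higher (7.23% of all). The counting interval lay below 1 at 6 (14.3%, against 12.7%) and above 1 at none (2.36%). The 3 comparisons share lists with each other, so they are not separate evidence.

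**Figure D3:**
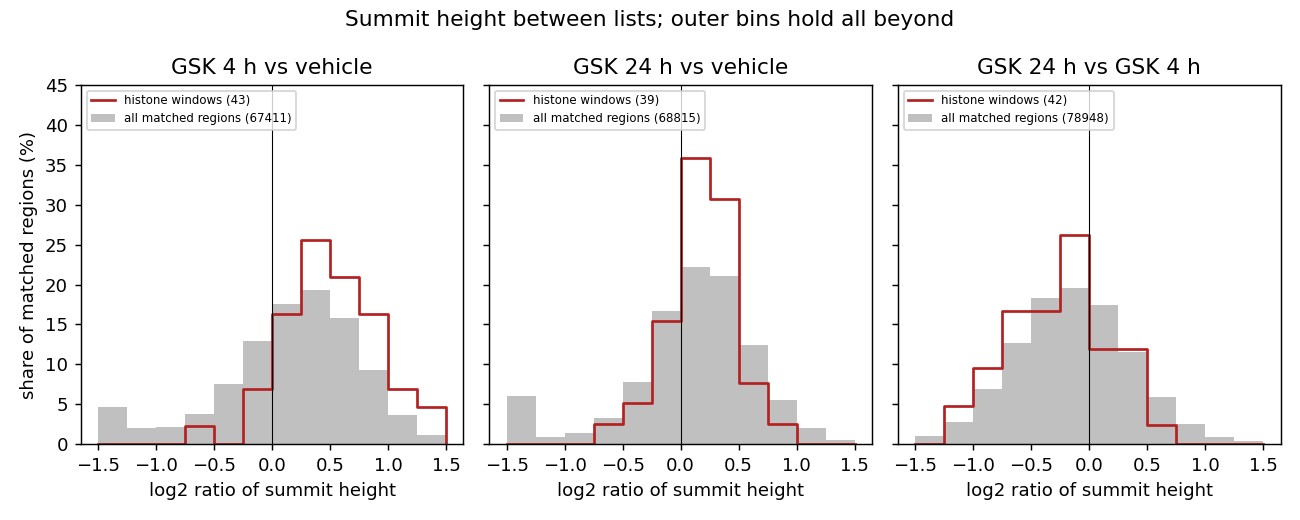
Each panel gives the share of matched regions (%) in steps of the log2 ratio of summit height between 2 lists, as grey bars for all matched regions and a red line for the histone windows, with the outermost steps holding all values beyond. The red line lies to the right of the bars for GSK 4 h against vehicle (median 0.50 against 0.24) and nearly over their centre for GSK 24 h against vehicle (0.17 against 0.16).

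The surround of the summits was denser in both GSK lists. Between 4 h and vehicle, 42 matched members had a surround above the genome-wide level in both lists, and the tag density was higher at 4 h in 39 of them (92.9%, against 68.1% of all such regions). The counting interval of the density ratio lay above 1 at 37 of 42 (88.1%, against 39.3%) and below 1 at none (16.2%). Over the 43 matched members the median log2 ratio of tag density was 0.43, against 0.07 over all matched regions and 0.27 between the windows. Neighbouring members share tags within 10 kb, so these counts are not of independent surrounds.

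At 24 h, tag density was higher than in vehicle in 36 of 38 matched members above the genome-wide level (94.7%, against 71.6% of all such regions), with an interval above 1 at 24 of 38 (63.2%, against 39.3%) and below 1 at none (16.6%). The median log2 ratio over the matched members was 0.25, against 0.13 over all matched regions. The stretches between the windows had a larger median of 0.36 (n = 97), so this difference was shared by the wider neighbourhood. From 4 h to 24 h the members' median was -0.16, while between the windows it was 0.16. Of the 39 members above the genome-wide level in that comparison, 9 were denser at 24 h than at 4 h (23.1%, against 41.7%).

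The 3 tallest vehicle summits of window 1 showed a denser surround at 4 h beside a summit of about the same height. At chr6:26125224-26126417 the 10 kb tag number was 543 in vehicle, 800 at 4 h and 549 at 24 h. Allowing for depth, the 4 h density was 1.37 times that of vehicle (1.23 to 1.53), beside a height ratio of 0.955 (0.682 to 1.33). At chr6:26159444-26160066 the tag numbers were 552, 818 and 638 and the 4 h density ratio 1.38 (1.24 to 1.54), and at chr6:26195961-26196459 they were 566, 865 and 689 and the ratio 1.42 (1.28 to 1.59). All 3 summits had a height ratio below 1 at 4 h and a density ratio above 1.

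To set members beside regions of like strength, the regions matched in all 3 lists were ranked in the list outside the comparison and divided into 10 classes by rank, which ties made unequal. Height ratios were read within classes of height, and density ratios within classes of tag density. Of the 32 members matched in all 3 lists, 23 exceeded the median of their own height class in the height ratio of 4 h to vehicle, by a median of 0.24 on the log2 scale, and 29 exceeded that of their own density class in tag density, by 0.27. For 24 h against vehicle, 21 of 32 exceeded it in height, by a median of 0.10, and 29 in tag density, by 0.24. For 24 h against 4 h, 11 of 32 exceeded it in height and 13 in tag density.

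Joining regions of any list within 3 kb gave 29 loci in the windows, of which 23 had a region in all 3 lists (against 58.7% of 106856 loci genome-wide), 6 had none in vehicle (32.2%), 4 had none at 24 h (16%) and 0 had none at 4 h (17.4%). The 4 of 29 without a 24 h region were close to the genome-wide share. The highest summit of the locus was higher at 4 h than in vehicle in 20 of the 23 (against 65.2% of loci genome-wide), and at least 1.5 times higher in 9 (22.9%). For 24 h against vehicle these counts were 19 of 23 (60.6%) and 2 (15.4%). At least 1.5 times lower was 1 locus at 4 h (13.2% genome-wide) and none at 24 h (14.1%). From 4 h to 24 h, 25 loci could be compared, of which 5 were at least 1.5 times lower (17.4%) and 1 was higher by that margin (7.14%). In window 2, all 3 loci were at least 1.5 times higher at 4 h, with heights of 12.5 in vehicle and 21.3 at 4 h, of 20.2 and 37.2, and of 19.7 and 37.7.

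Differences at 4 h were not even along window 1, as at 2 loci named after their values were seen. Locus chr6:26031742-26033828 had 27 fragments at its highest summit in vehicle, 53 at 4 h and 28 at 24 h, and chr6:26222772-26225603 had 23, 42 and 27. In both the 4 h value stood alone. Of the 7 loci with a height above 30 at 24 h, 5 were higher at 4 h than in vehicle, with a median log2 ratio of 0.15. Of the other 16 loci, 15 were higher, with a median of 0.49. The same order held genome-wide among loci in all 3 lists, with medians of -0.21 above a 24 h height of 30 and 0.28 up to it, so it is not particular to the cluster. Tag density was higher at 4 h in 7 of the 7 tall loci (49.9% genome-wide) and in 11 of the 16 (55.7%). It was read around the highest summit of each list, whose position within a locus can differ between lists. Loci at the genome-wide level in both lists counted as not higher.

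**Figure D4:**
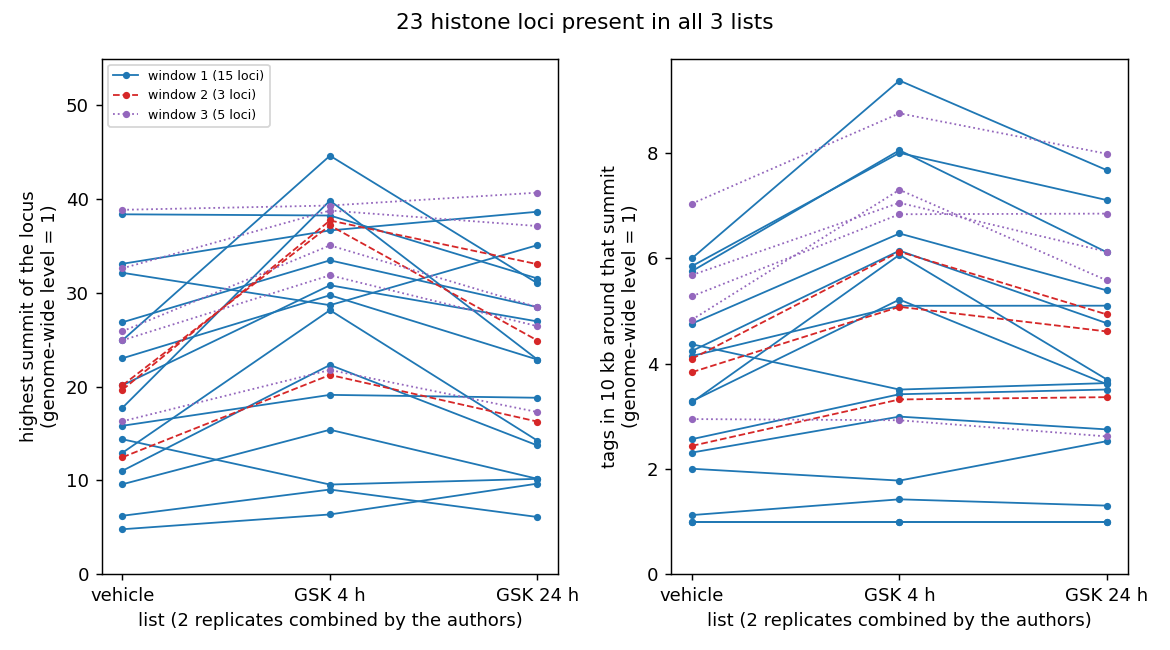
Lines join the values of 1 locus in the 3 lists (23 loci with a region in every list), with the height of its highest summit on the left and the tag density in 10 kb around it on the right, both relative to the genome-wide level. The 3 lines of window 2 peak at 4 h in height, and 4 of the 5 lines that start above 30 in vehicle stay above 30 throughout.

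Most members of a list overlapped a region of the other lists. Of 56 vehicle members, 49 overlapped a 4 h region (87.5%, Wilson 95% interval 76.4% to 93.8%, against 84.3% of all vehicle regions) and 48 a 24 h region (85.7%, 74.3% to 92.6%, against 86.0%). Both shares included the background. Of 59 members at 4 h, 46 overlapped a vehicle region (78.0%, 65.9% to 86.6%, against 67.0%), and of 54 at 24 h, 46 did (85.2%, 73.4% to 92.3%, against 68.0%). The 24 h share was thus above that of all regions beyond its counting interval, while the 4 h share was not.

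Between the GSK lists, 48 of 59 members at 4 h overlapped a 24 h region (81.4%, against 78.2%) and 48 of 54 at 24 h a 4 h region (88.9%, against 77.7%).

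Members found in 1 list alone numbered 2 of 56 in vehicle (8.27% of all regions), 6 of 59 at 4 h (17.2%) and 1 of 54 at 24 h (17%). The 2 vehicle members found in neither GSK list were chr6:26001246-26001597, with 10 fragments and a 4 h region 12 bp away, and chr6:27794542-27795074, with 22 fragments and no GSK region within 1 kb. Of the 13 members at 4 h without a vehicle region, 7 also overlapped a 24 h region. By p-value the first 5 regions of both GSK lists outside vehicle included chr6:26066295-26066809, which had 18 fragments at 4 h and 10 at 24 h on a surround at the genome-wide level and lay 8880 bp from the nearest vehicle region. Region chr6:26000890-26001214 at 24 h had 19 fragments but lay 31 bp from a vehicle region. Region chr6:27839518-27839765 had 25 fragments at 24 h, 19 in its 4 h counterpart and no vehicle region within 4210 bp. The other 2, chr6:26055176-26055558 at 4 h (38 fragments) and chr6:26032564-26032883 at 24 h (25 fragments), lay 110 bp and 234 bp from a vehicle region. The 24 h region that overlapped chr6:26055176-26055558 was chr6:26055143-26056635 (61 fragments), which did overlap a vehicle region. Of the 6 members found at 4 h alone, the 2 tallest were named after their values were seen. Region chr6:27778041-27778388 had 48 fragments and chr6:26197277-26197484 had 40, with vehicle regions 1714 bp and 817 bp away. The nearest 24 h regions lay 5 bp and 759 bp away, so the first missed an overlap with 24 h by 5 bp only. The other 4 had 9 to 19 fragments. The 6 loci without a vehicle region had at most 25 fragments at their highest summit in either GSK list.

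Summits also sat at slightly different positions. Between vehicle and 4 h the median shift of the summit within matched members was 111 bp, against 82.0 bp over all matched regions, and between 4 h and 24 h it was 159.5 bp against 82.0. Between vehicle and 24 h it was 65.0 bp, against 76.0. The fragment length behind a pileup was 221 bp in vehicle, 186 bp at 4 h and 219 bp at 24 h, and its part in the 4 h heights and shifts was not tested. Tag density does not use it.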

How the data were processed

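H3K4me2 ChIP-seq of LNCaP cells comprised 6 samples in 3 groups of 2 replicates, and the authors deposited 1 peak list per group in hg19. The submitters' processing notes name BWA 0.7.2-r351, SAMtools 0.1.18 and MACS2 2.0.10.20131216 (settings not given in the sources used here). Per the deposited values, each region has positions in bp, the fold enrichment (a ratio over local background), p-value and q-value on the -log10 scale, and a score for display. None was normalised between lists. The score was not used.

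For each region, a whole pileup and a background were solved from fold and p-value, within 0.001 on the -log10 p scale. A whole number was found for 99.998%, 100% and 100% of regions (vehicle, GSK 4 h, GSK 24 h). The background was the genome-wide level or, if larger, the tags in 10 kb around the summit, and no value called for an input control. That none was used is inferred from the values and not stated in the sources used here, and height, tag density and fold enrichment are read on that basis. Depth, as tags per 10 kb of genome, was 94.3, 101 and 89.8, and the median pileup 23, 21 and 21. The recovery and the matching were tested on simulated data, made with the same formulas and with regions over 1 kb apart. That test does not cover the reading without an input control or the matching of closer neighbours. Members were matched where 1 region overlapped exactly 1 other by at least 1 bp. A ratio of 1.5 counted as a difference in size, with intervals from the counts. Python 3.11.15, NumPy 2.4.6, SciPy 1.17.1 and pandas 2.3.3 were used.

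Regions named were the tallest vehicle members (5, 2 and 2 by window), the 5 lowest and 5 highest ratios of GSK 24 h to vehicle, regions of vehicle alone, the first 5 of both GSK lists outside vehicle by p-value, and the widest of each list. Regions or loci outside this rule were named after their values were seen. Loci were defined after seeing the data. The windows and lists were chosen with earlier results of these data known. Alternatives were stricter q-values, equal list lengths, merging, other overlap and matching rules, centring, fold enrichment in place of height, and single windows.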

Additional observations from a re-analysis of the deposited data

How the results depend on the processing

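No paired analysis was possible because the replicates of a group were merged before the peaks were deposited, and for the same reason no replicate could be left out. Medians of the height ratio kept their sign under every alternative. Most of the 201 alternative values were counts, shares or medians without a sign, so only the log2 ratios among them could reverse. Medians and shares outside the counting or rank interval of the value reported, and counts that changed by over 1.5 times, made up 79 values, and the other 122 stayed within these bounds. The cause was not tested in any of them. No genome-wide share under the same setting stands beside the counts and shares below, so they are not read against a background. The median pileups of 21 to 23 limit what can be read from weak regions, and at 24 h only 1 matched member had a counting interval for height that left 1.

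With a -log10 q of at least 10, member numbers were 26, 37 and 27 (vehicle, 4 h, 24 h), or 6.05, 8.60 and 6.28 per 100 kb, with median widths of 832, 713 and 794 bp, median -log10 q of 16.4, 18.9 and 16.4 and median fold of 4.91 (vehicle) and 4.67 (24 h). The share of 4 h members in vehicle was 59.5% and in 24 h 62.2%. For 4 h against vehicle the median log2 ratio was 0.40, with 6 members at least 1.5 times higher and 0 lower. For 24 h against vehicle 1 was higher, and for 24 h against 4 h 0 were higher and 2 lower. Merging within 1 kb gave 30, 33 and 32 members, 6.98, 7.67 and 7.44 per 100 kb, widths of 1139, 1546 and 881 bp, and 100% of 24 h members in the 4 h list.

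Window 2 alone had 33.3, 23.3 and 33.3 members per 100 kb and a median 4 h fold of 5.66. Its median log2 ratios were 0.83 (4 h to vehicle), 0.35 (24 h to vehicle) and -0.48 (24 h to 4 h), with 4, 1 and 0 members at least 1.5 times higher, 0 lower at 4 h and 1 lower from 4 h to 24 h. Window 3 alone had a vehicle median -log10 q of 14.6 and a 4 h median log2 ratio of 0.35, with 1, 0 and 0 members higher, 0 lower at 4 h and 1 lower from 4 h to 24 h.

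With 50% of both regions covered, shares were 64.3% (vehicle in 4 h), 73.2% (vehicle in 24 h), 61.0% (4 h in vehicle and in 24 h) and 66.7% (24 h in 4 h). With lists of equal length, 86.8% of 4 h members were in vehicle.

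Centred on all matched regions, the median log2 ratios were 0.26 (4 h to vehicle), 0.0073 (24 h to vehicle) and -0.076 (24 h to 4 h), with 1 higher and 1 lower for 24 h against vehicle and 2 higher and 6 lower for 24 h against 4 h. With the deposited fold enrichment they were 0.13, 0.0024 and -0.082, with 4, 1 and 0 members higher, 1 lower for 24 h against vehicle and 4 lower for 24 h against 4 h. With a fold of 2, 5, 0 and 0 members were higher, 0 lower at 4 h and 2 lower from 4 h to 24 h. By loci, an alternative chosen after seeing the data, 9 were higher at 4 h and 5 lower from 4 h to 24 h.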
